A study of Arabidopsis thaliana with 6 samples.

Results

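The genes described here are the oxidosqualene cyclase PEN3 (AT5G36150), its cytochrome P450 neighbours CYP716A1 (AT5G36110) and CYP716A2 (AT5G36140), and the cyclases PEN1 (AT4G15340), BARS1 (AT4G15370), THAS1 (AT5G48010), MRN1 (AT5G42600), LUP1 (AT1G78970) and CAS1 (AT2G07050), 9 genes of the 32834 loci counted. They were taken by locus ID. PEN3 was chosen by the size of its measured change from wild type in these same libraries, so its levels against wild type are given as a description, without a test. The other 8 genes belong to the same enzyme family or lie next to PEN3, and are read as rows of a fit over all genes. Of the 9 genes, 7 passed the filter on low counts and were tested. CYP716A2 and MRN1 did not pass it.

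Whole seedlings of Arabidopsis thaliana accession Col-0 were grown for 7 days on medium with 10 µM dexamethasone and 1% sucrose. All groups had 3 days of cold. Light was on for 16 hours and off for 8, at 120 µmol per square metre per second, with 21 °C by day and 19 °C by night. Poly(A) RNA was sequenced from 2 libraries in each of 3 groups. WT was untransformed wild type. MIF_1 and MIF_3 both carried the transgene pTA7002-Dexp:Myc-MIF, a Myc-tagged MIF under the promoter of a vector that dexamethasone switches on, and the labels do not say what the numbers 1 and 3 stand for or whether each is 1 transgenic line. Dexamethasone was given to all 3 groups, so no library shows the uninduced state, and with no library of the empty vector the transgene and the vector with its synthetic activator cannot be told apart. The locus that MIF comes from is not given in the labels, and its level was not analysed here. Library totals ran from 18262579 to 24698636 counts. WT replicate 2 stood apart in its share of plastid-encoded counts, 0.132% against at most 0.0273% in the other 5 libraries, and of nuclear rRNA counts, 1.04% against at most 0.468%. Removing those loci changed no call reported below. The labels do not say that replicates were separate cultures, so a p-value here reflects only how far these libraries vary, which may be technical. The numbers 1 and 2 of the replicates do not pair libraries across groups.

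Oxidosqualene cyclases fold the linear molecule 2,3-oxidosqualene, made from squalene by squalene epoxidases, into the ring systems of sterols and triterpenes. CAS1 makes cycloartenol, from which plants build their membrane sterols and brassinosteroids, and is needed in every cell. Most other Arabidopsis cyclases make specialised triterpenes. Several of those sit in gene clusters beside cytochrome P450 and acyltransferase genes that modify their products, are known mainly from roots, and are kept silent elsewhere by Polycomb marks on their chromatin. PEN3 makes the triterpene alcohol tirucalladienol and lies near CYP716A1 and CYP716A2, enzymes that oxidise amyrin-type triterpenes.

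PEN3 lies on the minus strand of chromosome 5 at positions 14220634 to 14226211 of the RefSeq TAIR10.1 assembly, with 2452 bases of exon and 2283 coding bases. No other annotated locus overlaps it. Of 1766 distinct 50-base windows of its exons, 7 occurred elsewhere in the genome, which is 0.396%. Its coding sequence was 80.4% identical to that of BARS1, 78.6% to PEN1, 78.1% to THAS1, 76.5% to MRN1, 64.6% to LUP1 and 59.9% to CAS1. The closest cyclase gene was AT3G29255, annotated as a putative pentacyclic triterpene synthase, at 87.0%, and it was listed at 0 in all 6 libraries. The RefSeq sequences of 250 bases that end just before the annotated starts of PEN3 and of its nearest P450 neighbour CYP716A2 are shown so that the start regions of the cyclase that was high and of a neighbour that stayed low can be compared. They come from TAIR10.1, read 5′ to 3′ on the gene's own strand, from chr5:14226212-14226461 for PEN3 and chr5:14213294-14213543 for CYP716A2, both on the minus strand. Capitals mark every match, on either strand, to the motifs described next.
PEN3: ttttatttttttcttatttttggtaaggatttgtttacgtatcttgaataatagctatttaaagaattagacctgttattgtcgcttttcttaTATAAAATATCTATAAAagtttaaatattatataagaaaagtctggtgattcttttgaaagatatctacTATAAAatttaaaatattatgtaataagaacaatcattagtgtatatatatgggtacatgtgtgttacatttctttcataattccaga
CYP716A2: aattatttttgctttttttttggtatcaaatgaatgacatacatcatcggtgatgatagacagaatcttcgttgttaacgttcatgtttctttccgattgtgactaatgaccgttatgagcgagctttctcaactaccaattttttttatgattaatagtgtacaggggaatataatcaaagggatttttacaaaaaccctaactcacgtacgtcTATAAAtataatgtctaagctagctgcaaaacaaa

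The motifs searched were the TATA box TATAAA, the W-box core TTGAC bound by WRKY factors, the G-box CACGTG, the evening element AAAATATCT of the circadian clock, and the GAL4 motif of the pTA7002 activator, which is CGG and CCG with 11 bases between. PEN3 held 3 TATAAA matches, whose first bases lay 157, 146 and 88 bases before the start, and 1 evening element at 154 that overlaps the first 2 of them. Over 27443 windows of the same length before annotated genes, 47.3% held TATAAA and 2.36% held the evening element. Among the 9 genes, PEN3 was the one whose window held an evening element. CYP716A2 held 1 TATAAA match, 35 bases before its start. Neither PEN3 nor CYP716A2 held a W-box core, which occurred in 44.9% of all windows. None of the 9 windows held a G-box, found in 6.49% of all windows, or the GAL4 motif, found in 1.06%. A match here is only a run of letters, and nothing about binding was measured.

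PEN3 transcripts were near absent in WT and abundant in both transgenic sets. It had 3 and 0 counts in the WT libraries, 1854 and 1974 in MIF_1 and 1711 and 967 in MIF_3. As CPM, counts per 1000000 counts of a library size scaled by TMM, those were 0.15 and 0, 77.9 and 82.0, and 67.6 and 39.0. All 4 transgenic libraries lay far above both WT libraries. WT replicate 2 had no count, which at its depth allows up to 0.181 CPM, 3 counts. The ratio of pooled counts was 973 for MIF_1 over WT, with an exact 95% interval of 333 to 4720, and 650 for MIF_3 over WT, with an interval of 222 to 3150. Both intervals cover counting error only. The fitted log2 fold change of PEN3 was 9.83 ± 0.48 (SE, 2 libraries per group) in MIF_1, 9.25 ± 0.49 in MIF_3 and 9.54 ± 0.47 for the mean of both sets. The last was the fifth largest rise among the 20438 genes tested. With 3 counts in WT, the fitted size moved with the setting, between 9.01 and 13.8 for MIF_1 and between 8.42 and 13.2 for MIF_3 over all alternatives run. By CPM, PEN3 ranked 20130 and 20288 among the 20438 genes in the WT libraries, 2455 and 2283 in MIF_1 and 2925 and 5050 in MIF_3. It thus stood among the weakest genes in both WT libraries and well up the list in all 4 transgenic ones. In seedlings sequenced whole, more cells with a transcript and more transcript per cell cannot be told apart.

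**Figure D1:**
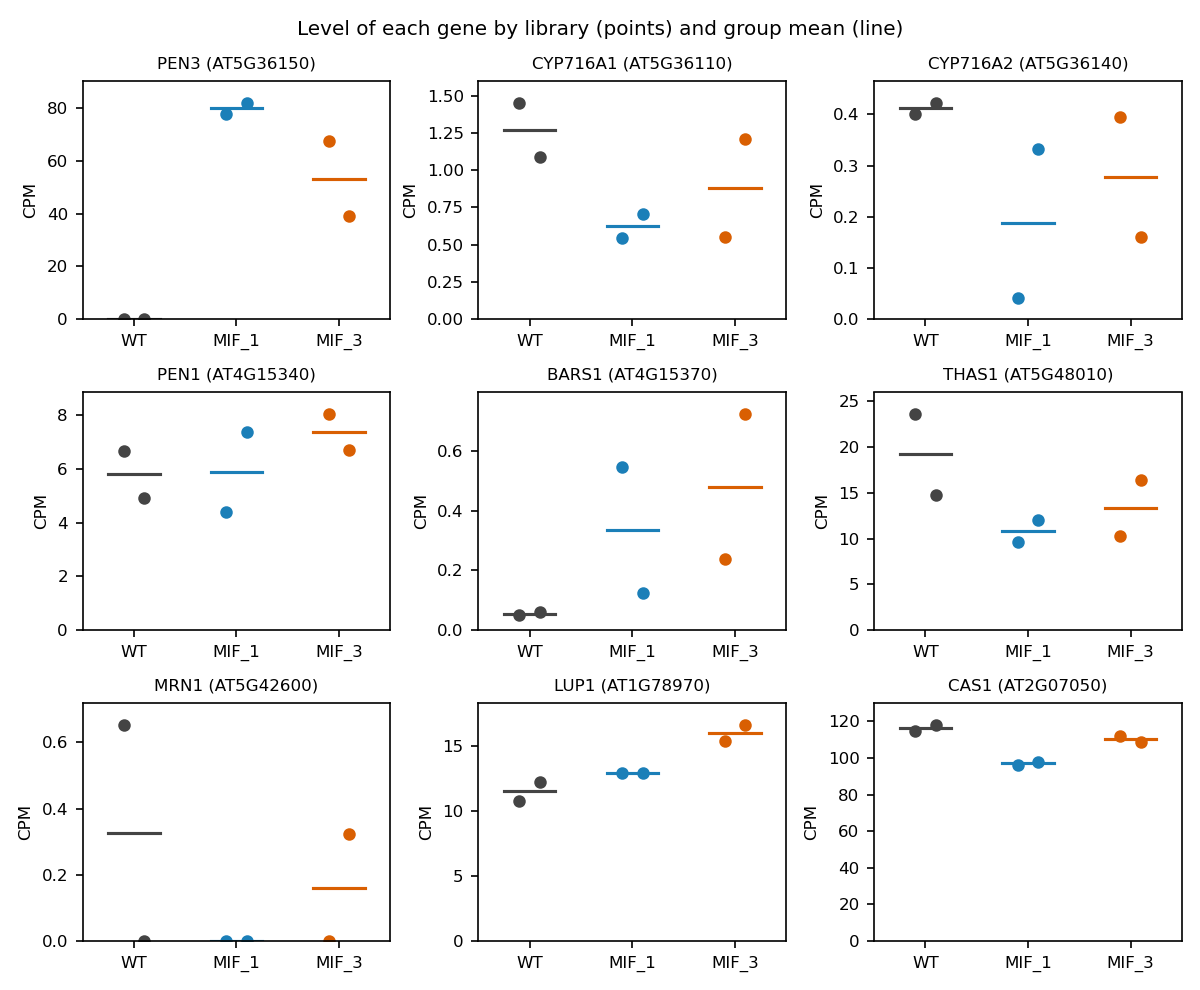
Level of each of the 9 genes in CPM (vertical axis, linear and from 0, with its own scale in each panel) in the 2 libraries of WT, MIF_1 and MIF_3. Points are libraries and lines are group means. PEN3 is at 0.15 or less in WT and at 39.0 or more in the transgenic libraries, while in the other panels the groups lie much closer together.

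The comparison of MIF_3 with MIF_1 asks whether the sets differ from each other, and it does not use how PEN3 was chosen. PEN3 differed by a log2 change of -0.59 ± 0.23, MIF_3 lower, with an adjusted p of 0.236 (edgeR quasi-likelihood test, Benjamini-Hochberg over all 20438 genes), and did not pass 0.05. MIF_3 replicate 1, at 67.6 CPM, lay nearer to the MIF_1 libraries than to MIF_3 replicate 2, at 39.0. Without MIF_3 replicate 1 the log2 change of PEN3 was -1.04, with an adjusted p of 0.0101 from edgeR. MIF_3 was then a single library, assumed to vary like the other groups, so this value is no second test, and the size of the difference rests on which MIF_3 library is used.

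Leaving PEN3 aside, 0 of the other 6 genes tested rose and 0 fell with edgeR in MIF_1 against WT, in MIF_3 against WT, in the mean of both against WT or in MIF_3 against MIF_1. Of all 20438 genes, 7.82% were called higher and 9.85% lower in MIF_1, 5.84% higher and 7.47% lower in MIF_3, and 7.76% higher and 10.9% lower for the mean. In MIF_3 against MIF_1, 0.475% of all genes were called higher and 1.29% lower. At an unadjusted p under 0.05, 2 of the 6 were lower in MIF_1, 2 were higher in MIF_3, 2 were higher and 1 lower for the mean, and 0 differed between the sets. The median log2 change of the 6 was -0.12 in MIF_1, 0.13 in MIF_3, 0 for the mean and 0.32 in MIF_3 against MIF_1, beside 0.01 over all genes in each. The first 3 comparisons share the WT libraries. DESeq2 called 1 of these genes lower in MIF_1 and 1 for the mean, THAS1 in both.

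No tested neighbour of PEN3 was called higher in the fit of all 6 libraries. CYP716A1, which starts 30.9 kb from the PEN3 start, had 29 and 18 counts in the WT libraries, 13 and 17 in MIF_1 and 14 and 30 in MIF_3. Both MIF_1 libraries were below both WT libraries, and MIF_3 overlapped WT. Its log2 change was -1.02 ± 0.58 in MIF_1, with an adjusted p of 0.274 (edgeR), and -0.53 ± 0.56 in MIF_3, with an adjusted p of 0.6. CYP716A2, the locus next to PEN3 on its 3′ side with a start 12.9 kb from that of PEN3, had 8 and 7 counts in the WT libraries, 1 and 8 in MIF_1 and 10 and 4 in MIF_3. In CPM those were 0.401 and 0.422, 0.042 and 0.332, and 0.395 and 0.161, so all 4 transgenic libraries lay below both WT libraries, one of them just below, at counts too few to be tested. The coding sequences of CYP716A1 and CYP716A2 were 87.6% identical over 957 bases. CYP716A1 had 1.55% of its 50-base windows repeated elsewhere, and CYP716A2 had 0, so these genes shared no exact exon window of that length. Whether reads were exchanged between them was not tested.

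Of the 5 counted loci on each side of PEN3, 5 of the 10 were tested, and 0 rose in any comparison with edgeR or DESeq2. With edgeR, 7.82% of all genes rose in MIF_1, 5.84% in MIF_3 and 7.76% for the mean. At those shares, 0 of 5 does not set the neighbours apart from all genes. At an unadjusted edgeR p under 0.05, 1 of the 5, SCPL1, was higher in MIF_3 and for the mean, and 0 in MIF_1. At the same limit 2 of the 5, CCB3 and HCF109, were lower in MIF_1 and for the mean. CCB3, which helps assemble the cytochrome complex of photosynthesis, was called lower, in MIF_1, at a log2 change of -0.49 with an adjusted p of 0.0372 (edgeR). That call was lost with DESeq2 (0.0519), with a replicate block (0.0559) and without any WT or MIF_1 library (from 0.0691 to 0.172). HCF109, a plastid factor needed for photosystem assembly, had 79.8 and 72.8 CPM in the WT libraries, 58.9 and 64.2 in MIF_1 and 70.7 and 71.9 in MIF_3, all 4 below WT. Its log2 change was -0.31 ± 0.1 in MIF_1, with an adjusted p of 0.0672 (edgeR), and -0.1 ± 0.1 in MIF_3. AT5G36160, a tyrosine transaminase family gene 9.0 kb beyond the PEN3 start, lay between 73.7 and 88.7 CPM in all 6 libraries. SCPL1, a serine carboxypeptidase-like gene, ran from 6.57 to 7.23 CPM in WT, 7.48 to 9.93 in MIF_1 and 8.98 to 13.3 in MIF_3. Its mean log2 change was 0.52 ± 0.21, with an adjusted p of 0.119 (edgeR). SCPL1 passed for the mean without MIF_3 replicate 2 (0.65, adjusted p 0.0368), and 21.6% of its 50-base windows are repeated in the genome, so its reads may be shared with its copies. The P450 locus AT5G36130 had 0 counts in WT and MIF_1 and 4 and 11 in MIF_3, at least 3.64-fold higher in MIF_3 than the floor of 3 pooled counts in WT. The noncoding locus AT5G05325, which starts 0.4 kb from PEN3 on the other strand, had 0 counts in all 6 libraries.

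**Figure D2:**
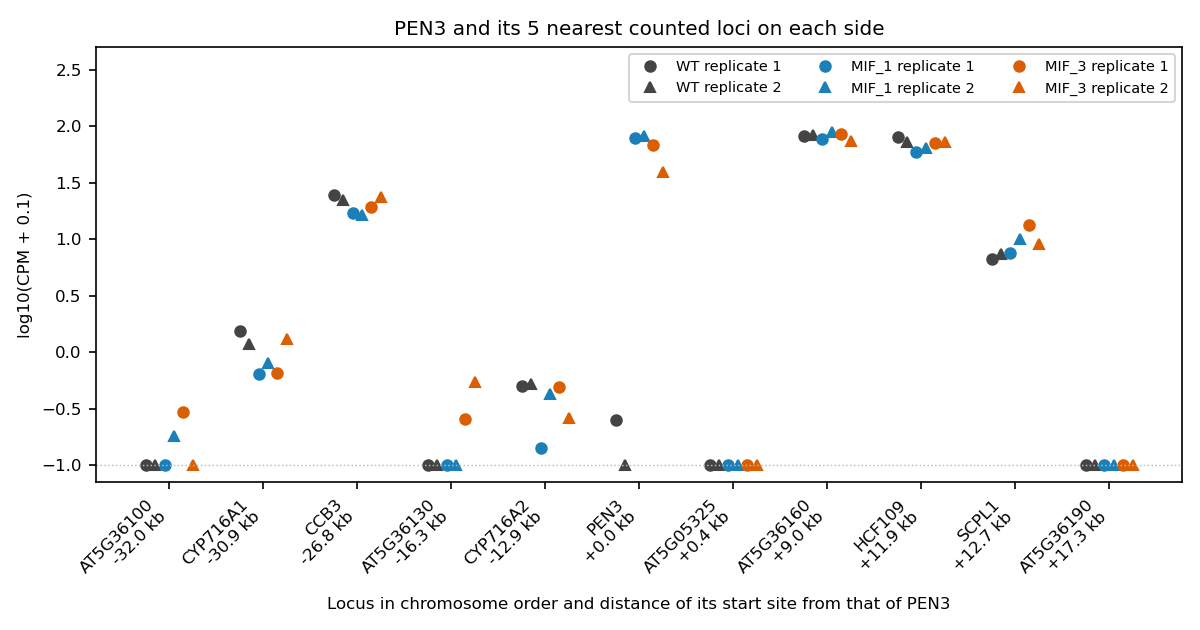
Levels as log10(CPM + 0.1) (vertical axis) of PEN3 and the 5 nearest counted loci on each side, in chromosome order, labelled with the distance in kb of each start site from that of PEN3. Circles are replicate 1 and triangles replicate 2, and the dotted line marks 0 CPM. PEN3 is the locus where the transgenic libraries leave the WT libraries far behind.

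PEN1 makes arabidiol, a triterpene that roots break down to a volatile defence compound, and BARS1 makes baruol. PEN1 had 133 and 82 counts in the WT libraries, 105 and 178 in MIF_1 and 204 and 167 in MIF_3, or 6.67 and 4.94, 4.41 and 7.39, and 8.05 and 6.73 CPM. MIF_1 spanned the WT values and both MIF_3 libraries lay above them. The log2 change of PEN1 was 0.02 ± 0.28 in MIF_1 and 0.34 ± 0.28 in MIF_3, with adjusted p of 0.974 and 0.479 (edgeR). BARS1 had 1 and 1 counts in the WT libraries, 13 and 3 in MIF_1 and 6 and 18 in MIF_3. All 4 transgenic libraries were higher than both WT libraries, at levels under 1 CPM. The pooled BARS1 ratio to WT was 6.1, with an exact 95% counting interval of 1.43 to 54.7, in MIF_1 and 8.74, with an interval of 2.17 to 76.3, in MIF_3. With its spread between libraries, the BARS1 log2 change was 2.49 ± 1.31 in MIF_1 and 3.01 ± 1.25 in MIF_3, with adjusted p of 0.23 and 0.151 (edgeR).

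Several P450 genes beside PEN1 and BARS1 changed, while the cyclases themselves did not pass. Of the 10 loci flanking this cluster, all 10 were tested, and for the mean of both sets 2 rose and 2 fell. Of all genes, 7.76% rose and 10.9% fell in that comparison. CYP702A2, which starts 27.7 kb from PEN1, had 22 and 5 counts in the WT libraries, 1261 and 1578 in MIF_1 and 602 and 419 in MIF_3. Its mean log2 change was 5.55 ± 0.33, with an adjusted p of 8.83e-06 (edgeR). CYP702A3, 23.9 kb from PEN1, had 0 counts in both WT libraries, 103 and 85 in MIF_1 and 46 and 31 in MIF_3. Against 3 pooled counts it was at least 47.8-fold higher in MIF_1 and at least 18.7-fold higher in MIF_3, with an adjusted p of 0.000485 (edgeR) for the mean. Neither CYP702A2 nor CYP702A3 had a 50-base window repeated elsewhere. CYP702A5, on the far side of BARS1, fell by 1.44 on the log2 scale for the mean, with an adjusted p of 0.0078 (edgeR), and CYP702A6 beside it had a log2 change of 0.17 ± 0.49. CYP702A5 and CYP702A6 each have 16 windows of 50 bases that occur elsewhere in the genome.

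CYP705A2 and CYP705A3 lie between PEN1 and BARS1. CYP705A2 rose in MIF_1 by a log2 change of 2.21 ± 0.6, from 0.803 and 0.181 CPM in WT to 2.02 and 2.74, with an adjusted p of 0.0309 (edgeR). The CYP705A2 call was lost without WT replicate 2 (1.56, adjusted p 0.12), MIF_1 replicate 1 (0.0999) or MIF_1 replicate 2 (0.181). CYP705A3 had too few counts to be tested. CYP705A1, whose product cleaves arabidiol, had a mean log2 change of 0.4 ± 0.37, with an adjusted p of 0.507 (edgeR). The acyltransferase gene AT4G15390 fell for the mean by 0.56 on the log2 scale, with an adjusted p of 0.0333 (edgeR), a call lost when a WT library (0.246 without replicate 1 and 0.0537 without replicate 2) or a MIF_1 library (0.111 and 0.088) was left out. Of the 9 listed genes of this cluster other than PEN1 and BARS1, 8 were tested, and for the mean 1 rose, 2 fell and 5 did not pass, with a median log2 change of -0.07.

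THAS1, which makes thalianol and heads the best known triterpene cluster of Arabidopsis roots, had lower means in the transgenic sets that did not pass the test. It had 471 and 245 counts in the WT libraries, 229 and 290 in MIF_1 and 262 and 407 in MIF_3, or 23.6 and 14.8, 9.62 and 12.0, and 10.3 and 16.4 CPM. Both MIF_1 libraries lay below both WT libraries, while MIF_3 replicate 2 lay between them. The THAS1 log2 change was -0.83 ± 0.26 in MIF_1, with an adjusted p of 0.0576, -0.53 ± 0.26 in MIF_3, with 0.227, and -0.68 ± 0.22 for the mean, with 0.0617 (edgeR). THAS1 in MIF_1 sits at the threshold. It was called lower with DESeq2 (0.0268), without the low-count filter (0.0249), with only the libraries compared (0.0219), and without WT replicate 2 (log2 change -1.12, adjusted p 0.0269), MIF_3 replicate 1 (0.0226) or MIF_3 replicate 2 (0.0225). For the mean, THAS1 was called with DESeq2 (0.0368), without the low-count filter (0.0273), and without WT replicate 2 (-0.97, adjusted p 0.028) or MIF_3 replicate 2 (-0.86, adjusted p 0.0124).

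CYP708A2, the thalianol hydroxylase next to THAS1, fell in both sets. It had 12.8 and 10.9 CPM in the WT libraries, 4.2 and 5.28 in MIF_1 and 2.49 and 4.15 in MIF_3, with every transgenic library below both WT libraries. The CYP708A2 log2 change was -1.33 ± 0.26 in MIF_1, with an adjusted p of 0.00798, and -1.84 ± 0.27 in MIF_3, with 0.00219 (edgeR). Its MIF_1 call was lost without WT replicate 1 (-1.19, adjusted p 0.0511), MIF_1 replicate 1 (0.0853) or MIF_1 replicate 2 (0.0503). CYP705A5, the desaturase of the same cluster, had 16.2 and 14.5 CPM in the WT libraries, 7.6 and 10.6 in MIF_1 and 19.0 and 15.4 in MIF_3. It fell in MIF_1 by 0.76 on the log2 scale, with an adjusted p of 0.0232, and had a log2 change of 0.16 ± 0.18 in MIF_3, with 0.627 (edgeR). The MIF_1 call of CYP705A5 was lost without WT replicate 1 (0.106), WT replicate 2 (0.0502) or MIF_1 replicate 1 (0.15). The acyltransferase genes of the cluster were not called, and both had higher values in MIF_3 than in MIF_1. AT5G47980 had a log2 change of -0.09 ± 0.41 in MIF_1 and 1.18 ± 0.39 in MIF_3, the latter with an adjusted p of 0.0781 (edgeR), and it passed in MIF_3 without the low-count filter (0.0389) and without WT replicate 1 (2.01, adjusted p 0.018). AT5G47950 had a log2 change of -0.88 ± 0.31 in MIF_1 and 0.49 ± 0.29 in MIF_3. The difference between the sets was 1.37 ± 0.3 for AT5G47950, with an adjusted p of 0.0547 (edgeR), and passed with DESeq2 (0.019), without the low-count filter (0.0243), with the stricter filter (0.0493) and without MIF_3 replicate 2 (1.61, adjusted p 0.0342). Of these 4 cluster partners of THAS1, 2 fell in MIF_1 and 1 in MIF_3. On the other side of THAS1, the oxygenase family gene AT5G48020 was called lower for the mean, at a log2 change of -0.32 with an adjusted p of 0.0365 (edgeR). The AT5G48020 call was lost with DESeq2 (0.0524), with the replicate block (0.0598) and without any 1 of the 6 libraries (from 0.0544 to 0.241). GFA2, needed in the female gametophyte, rose in MIF_1 by a log2 change of 0.45 ± 0.11, with an adjusted p of 0.0226 (edgeR), a call lost without any 1 WT or MIF_1 library (from 0.0578 to 0.142).

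MRN1 makes marneral, which its neighbour CYP71A16 oxidises. MRN1 had 13 and 0 counts in the WT libraries, 0 and 0 in MIF_1 and 0 and 8 in MIF_3, so 1 library held all its reads in WT and 1 in MIF_3, and it was not tested. CYP71A16 had 2.21 and 2.41 CPM in the WT libraries, 1.13 and 0.914 in MIF_1 and 1.18 and 1.29 in MIF_3. All 4 transgenic libraries were below both WT libraries, and the mean log2 change of CYP71A16 was -1.03 ± 0.34, with an adjusted p of 0.0621 (edgeR). Of the 10 loci flanking MRN1, 5 were tested and 0 were called, with edgeR or DESeq2, in any of the comparisons. For the mean, edgeR called 7.76% of all genes higher and 10.9% lower, so 0 of 5 does not set these loci apart. At an unadjusted edgeR p under 0.05, 1 was lower in each comparison with WT, CYP71A16.

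**Figure D3:**
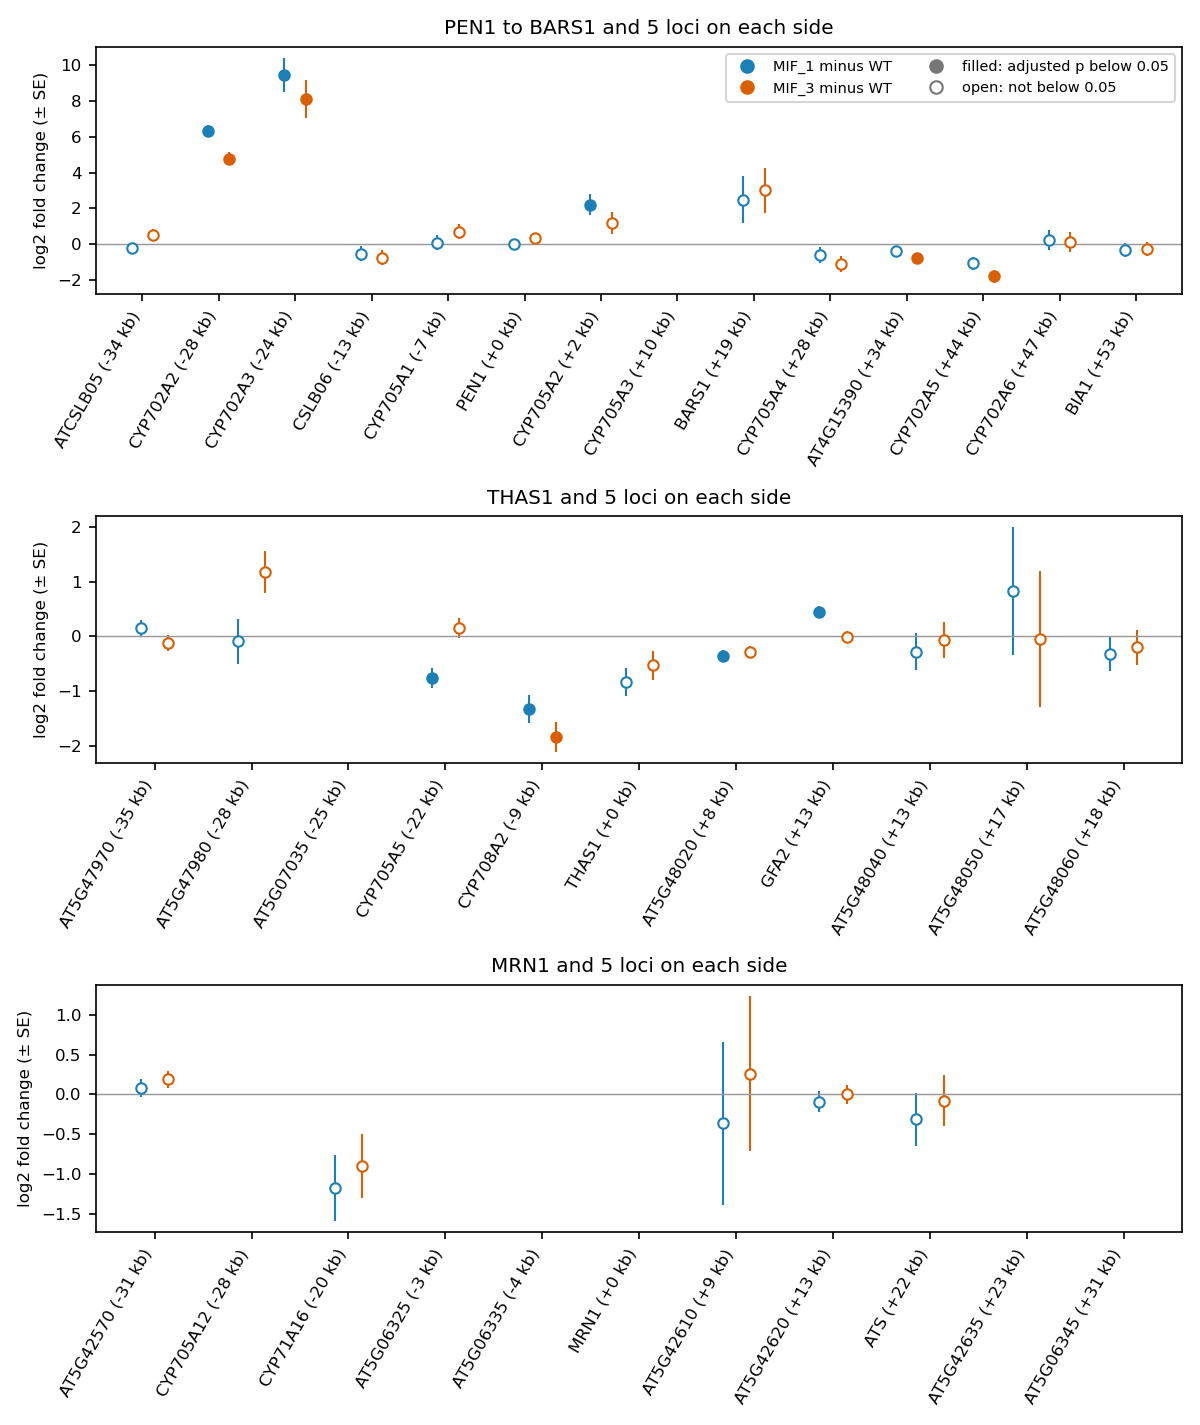
Log2 fold change against WT with its SE (vertical axis) for the genes of the PEN1 to BARS1, THAS1 and MRN1 regions in chromosome order, with the distance of each start site from that of PEN1, THAS1 or MRN1. Blue is MIF_1, orange is MIF_3, filled points have an adjusted p below 0.05 and loci without a point were not tested. CYP702A2 and CYP702A3 stand high and CYP708A2 low in both sets. The fitted value of CYP702A3 rests on 0 counts in WT and is not a measure of size.

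The root is where most of these clusters are known to be active, so the levels of root and shoot markers are set beside them. The 22 root markers summed to 323 and 267 CPM in the WT libraries, 308 and 313 in MIF_1 and 400 and 353 in MIF_3, and none of the 22 was at 0 in any library. MIF_1 lay within the WT range and MIF_3 above it. In MIF_1, 1 of the 22 rose and 1 fell, 4.55% each way beside 7.82% and 9.85% of all genes. In MIF_3, 7 rose and 0 fell, which is 31.8% higher beside 5.84% of all genes. The median log2 change of the 22 was 0.24 in MIF_1 and 0.58 in MIF_3. Without WT replicate 2 these medians were -0.04 and 0.41, so the sizes, and the count of 7, rest in part on that library. CYP86A1, a suberin P450 named after its values were seen, was called in both sets, at a log2 change of -0.43 ± 0.12 in MIF_1 (adjusted p 0.0337, edgeR) and 0.49 ± 0.12 in MIF_3 (0.0223). The sets differed by 0.92 ± 0.12 for CYP86A1, with an adjusted p of 0.00506 (edgeR), lost without MIF_1 replicate 1 (0.0916) or MIF_1 replicate 2 (0.0831). Its MIF_1 call was lost with DESeq2 (0.0608), with the replicate block (0.0528), with only the groups compared (0.0501) and when any WT or MIF_1 library was left out (0.061 to 0.164). Its MIF_3 call was lost without WT replicate 1 (0.122) and without either MIF_3 library (0.0815 and 0.0753). For the mean of both sets, the median log2 change was 0.52, and 4 of the 22 rose and 1 fell. These are 18.2% and 4.55%, beside 7.76% and 10.9% of all genes. Those that rose were the root-hair expansin EXPA7 (1.08 ± 0.23), the hair-cell wall protein PRP3, the suberin feruloyl transferase ASFT and the auxin carrier PIN2, and the nitrate transporter NRT2.1 was called lower (-1.31 ± 0.37, adjusted p 0.0364, edgeR). The NRT2.1 call was lost with DESeq2 (0.156) and when a WT library (0.239 without replicate 1 and 0.0596 without replicate 2) or a MIF_1 library (0.127 and 0.101) was left out. Without WT replicate 2, 0 root markers were called higher for the mean with edgeR, and 4 had an unadjusted p under 0.05. The count was 1 without MIF_1 replicate 2, 2 without MIF_3 replicate 1 and 7 without MIF_3 replicate 2. EXPA7 and ASFT overlap a locus on the opposite strand. The 8 shoot markers summed to 34874 and 35766 CPM in the WT libraries, 22624 and 23636 in MIF_1 and 24898 and 29888 in MIF_3, and none was at 0. For the mean, 6 of the 8 fell and 0 rose with edgeR and with DESeq2, which is 75.0% lower beside 10.9% of all genes with edgeR. With either method, 0 of the 8 were higher at an unadjusted p under 0.05. Their median log2 change was -0.53, and -0.52 without WT replicate 2, where fewer of the 8 passed. Among those that fell were LHCB1.2 of the light-harvesting antenna and the guard-cell channel KAT1. The part of organ proportions in the cyclase levels was not tested. The fitted mean log2 changes of the root markers ran from -1.31 to 1.24.

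LUP1 makes lupeol. It had 10.8 and 12.2 CPM in WT, 12.9 in each MIF_1 library and 15.4 and 16.6 in MIF_3. The 3 groups did not overlap, with WT lowest and MIF_3 highest. The LUP1 log2 change was 0.17 ± 0.15 in MIF_1, with an adjusted p of 0.49, and 0.48 ± 0.14 in MIF_3, with 0.0575 (edgeR), and neither passed. LUP1 overlaps AT1G78980 on the opposite strand. The strand setting of the counting is not given in the sources used here, so reads of the overlap cannot be assigned.

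CAS1, the entry to sterols, was not called in MIF_1 or MIF_3. It had 115 and 118 CPM in the WT libraries, 96.2 and 97.9 in MIF_1 and 112 and 109 in MIF_3. The MIF_1 libraries were the lowest and no groups overlapped. The CAS1 log2 change was -0.26 ± 0.09 in MIF_1, with an adjusted p of 0.0788, and -0.08 ± 0.09 in MIF_3, with 0.639 (edgeR).

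Of the 7 cyclase genes of Arabidopsis outside the 9 genes, 4 were tested, and for the mean of both sets 1 rose, 1 fell and 2 did not pass. The one that rose was LAS1, which makes lanosterol, the sterol precursor of animals and fungi. LAS1 had 26 and 4 counts in the WT libraries, 693 and 605 in MIF_1 and 347 and 302 in MIF_3. All transgenic libraries were above WT, and MIF_1 was above MIF_3. Its log2 change was 5.05 ± 0.37 in MIF_1, with an adjusted p of 4.47e-05, and 3.98 ± 0.38 in MIF_3, with 0.000199 (edgeR). MIF_3 was below MIF_1 by a log2 change of -1.07 ± 0.26 for LAS1, with an adjusted p of 0.0806 (edgeR). That difference passed without the low-count filter (0.0212), with only these sets fitted (0.00635), and without WT replicate 1 (0.00667) or WT replicate 2 (0.00708). Of the LAS1 windows of 50 bases, 2.97% occurred elsewhere in the genome.

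BAS, annotated as a terpenoid cyclase and known as a beta-amyrin synthase, fell. It had 5.12 and 4.4 CPM in the WT libraries, 2.94 and 2.74 in MIF_1 and 1.86 and 2.42 in MIF_3, with a mean log2 change of -0.95 ± 0.24 and an adjusted p of 0.0225 (edgeR). The BAS call was lost when a WT library (0.153 without replicate 1 and 0.0645 without replicate 2) or a MIF_1 library (0.06 and 0.0714) was left out. LUP2, a synthase of mixed amyrins, and CAMS1, of camelliol C, had mean log2 changes of 0.01 ± 0.16 and -0.34 ± 0.32, and neither passed. LUP5 had 4 and 8 counts in the WT libraries, 0 and 0 in MIF_1 and 3 and 2 in MIF_3. PEN6 and AT3G29255 were listed at 0 throughout.

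Levels of different genes are compared here as CPM per kb of exon. In WT, CAS1 led the 14 cyclase genes at 36.4 ± 0.691 (SD, n = 2), followed by THAS1 at 7.23 ± 2.36 and LUP1 at 3.78 ± 0.311. LUP2, PEN1 and BAS came next at 2.47, 2.2 and 1.74 CPM per kb, with overlapping libraries between neighbours, and PEN3 was 11th at 0.0307. In MIF_1, PEN3 was first at 32.6 ± 1.18, its libraries at 31.8 and 33.4 above those of CAS1 at 30.0 and 30.6, and LAS1 came next at 9.1 ± 0.945. The order of PEN3 and CAS1 there rests on the scaling by exon length, 2452 bases for PEN3 and 3203 for CAS1. Their coding lengths were 2283 and 2280 bases, and in CPM the MIF_1 mean of CAS1, 97.1, was above that of PEN3, 79.9. In MIF_3, CAS1 was first at 34.5 ± 0.543 and PEN3 second at 21.7 ± 8.24, with libraries at 27.5 and 15.9. PEN3 made up 0.109% and 0% of the summed cyclase level in WT, 37.1% and 38.0% in the MIF_1 libraries, and 33.3% and 21.9% in MIF_3.

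The 14 genes summed to 56.4 and 53.6 CPM per kb in the WT libraries, 85.6 and 88.0 in MIF_1 and 82.7 and 72.6 in MIF_3. Without PEN3 the sums were 56.4 and 53.6, 53.8 and 54.6, and 55.2 and 56.7, so the groups differed by less than the spread of the WT libraries. The share of CAS1 was 63.6% and 68.8% in WT, 35.1% and 34.7% in the MIF_1 libraries, and 42.1% and 47.0% in MIF_3. That fall in share came with a CAS1 level of 30.0 CPM per kb or more in every library.

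**Figure D4:**
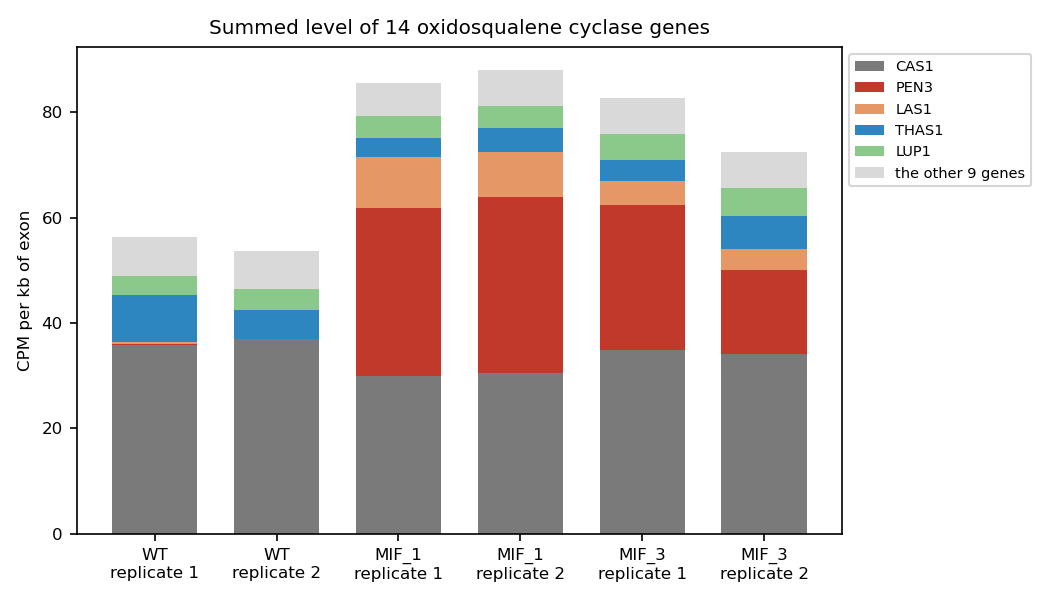
Summed level of 14 oxidosqualene cyclase genes in CPM per kb of exon (vertical axis, from 0) in each of the 6 libraries, split by gene. The transgenic bars reach 72.6 to 88.0 and the WT bars 53.6 and 56.4, and the PEN3 block of 15.9 to 33.4 makes up the gap.

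The steps before the cyclases supply 2,3-oxidosqualene to all of them. Of 21 genes from the mevalonate pathway to the squalene epoxidases, all tested, 1 rose, 3 fell and 17 did not pass for the mean of both sets, with a median log2 change of -0.03. These are 4.76% and 14.3% of the list, near the 7.76% and 10.9% of all genes. HMG1, the reductase that sets the flow of the mevalonate pathway, had 217 and 254 CPM in WT, 213 to 221 in MIF_1 and 237 to 296 in MIF_3, with a mean log2 change of 0.03 ± 0.11. SQE6, a squalene epoxidase-like gene, rose from 13.9 and 21.8 CPM in WT to 63.4 and 60.7 in MIF_1 and 42.8 and 52.0 in MIF_3. Its mean log2 change was 1.61 ± 0.17, with an adjusted p of 0.000272 (edgeR). SQE5, its neighbour in the family, fell from 155 and 151 CPM to 99.1 and 88.0 and to 63.1 and 63.3, by 0.99 on the log2 scale, with an adjusted p of 7.22e-05 (edgeR). Neither SQE5 nor SQE6 had a 50-base window repeated elsewhere.

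SQE3, an epoxidase shown to work in yeast, fell by 0.76 on the log2 scale for the mean, from 165 and 183 CPM in WT to between 90.4 and 112 in the transgenic libraries, with an adjusted p of 0.00103 (edgeR). SQE1, the main epoxidase of Arabidopsis, had a mean log2 change of 0.37 ± 0.12 that did not pass, with an adjusted p of 0.0617. SQS2, annotated as squalene synthase 2, fell by 1.12 on the log2 scale, with an adjusted p of 0.0124 (edgeR). The SQS2 call was lost without WT replicate 1 (-0.78, adjusted p 0.148) or MIF_1 replicate 1 (0.0573), and SQS2 overlaps AT4G34660 on the opposite strand. SQS1, annotated as squalene synthase 1, ran from 73.3 to 83.6 CPM in all 6 libraries.

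Of 17 genes of sterol synthesis after CAS1, 2 rose, 2 fell and 13 did not pass for the mean, with a median log2 change of -0.05. At 11.8% in each direction, that is near the shares of all genes. SMT1, a sterol methyltransferase gene whose product acts on cycloartenol itself, had 74.3 and 91.1 CPM in the WT libraries, 113 and 115 in MIF_1 and 150 and 134 in MIF_3. All transgenic libraries were above WT, and the mean log2 change of SMT1 was 0.62 ± 0.11, with an adjusted p of 0.00328 (edgeR). SMT3, for a methyltransferase that acts later on the side chain, had 41.6 and 40.0 CPM in the WT libraries, 48.5 and 51.2 in MIF_1 and 89.3 and 79.5 in MIF_3. Its mean log2 change was 0.67 ± 0.09, with an adjusted p of 0.00129 (edgeR). SMO1-2 and 3BETAHSD/D2 act in removing methyl groups from the sterol ring. SMO1-2 fell by 0.52 and 3BETAHSD/D2 by 0.49 on the log2 scale, with adjusted p of 0.0212 and 0.0137 (edgeR). The first call was lost without any 1 of the WT libraries (0.0693 and 0.122), the MIF_1 libraries (0.0597 and 0.0629) or MIF_3 replicate 1 (0.0521), and the second without WT replicate 1 (0.106).

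**Figure D5:**
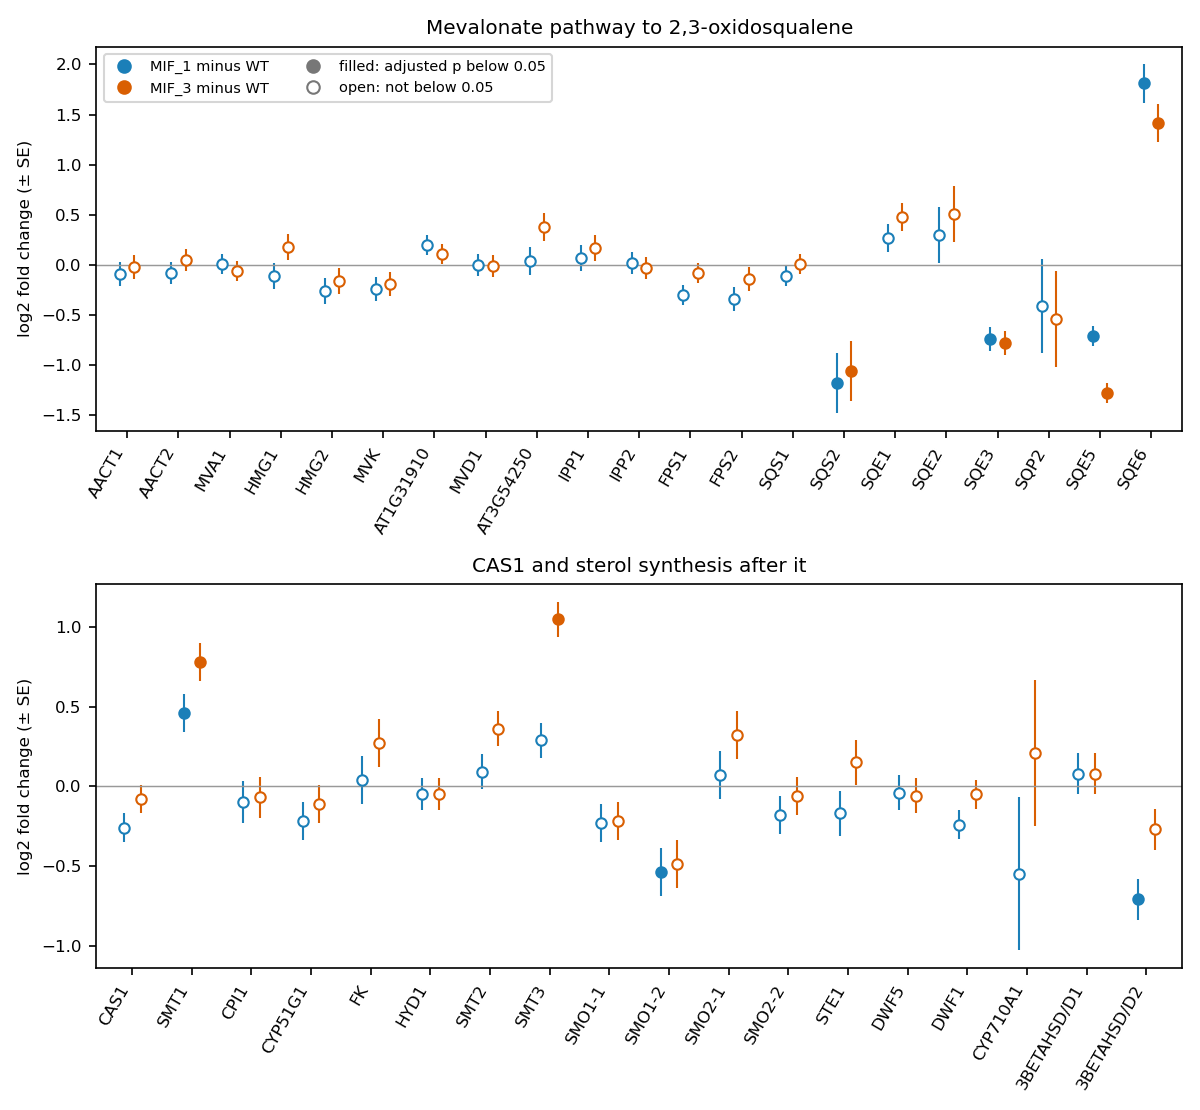
Log2 fold change against WT with its SE (vertical axis) for the genes that lead to 2,3-oxidosqualene (upper panel) and for CAS1 and the sterol genes after it (lower panel). Blue is MIF_1, orange is MIF_3 and filled points have an adjusted p below 0.05. Most genes lie near 0, with SQE6, SMT1 and SMT3 above it and SQS2, SQE3 and SQE5 below.

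Clusters of this kind are known to be silenced by Polycomb proteins and kept open by the complex that exchanges histone H2A.Z. Of 5 genes for such chromatin factors, ARP6, PIE1, CLF, LHP1 and PKL, all tested with edgeR, 0 were called in any of the 4 comparisons, and 0 had an unadjusted p under 0.05 in any of them, and DESeq2 called 0 as well. With edgeR, 7.76% of all genes were called higher and 10.9% lower for the mean. All 5 of these factor genes overlap another annotated locus. Their mean log2 changes ran from -0.18 to -0.09.

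The 5 genes whose level over the 6 libraries followed PEN3 most closely, by root mean square distance of centred log2 CPM, were CYS2, AT4G36700, LURP1, AT1G07373 and AT2G05510. CYS2, a phytocystatin, was nearest at 0.382, with 0.853 and 0.482 CPM in the WT libraries, 313 and 341 in MIF_1 and 181 and 128 in MIF_3. The other 4 lay at 0.669 to 1.15. AT4G36700, a cupin family gene, had 28.8 and 34.6 CPM in MIF_1 and 52.9 and 9.75 in MIF_3. LURP1, a gene known from defence against a downy mildew, had 31.8 and 35.3 in MIF_1 and 14.8 and 8.46 in MIF_3. Both had at most 0.0502 CPM in WT. CYS2 overlaps a locus on the opposite strand.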

How the data were processed

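The deposited values were the authors' read counts per locus, whole numbers that had not been normalized. The submitters' processing notes name fastp, STAR, HTSeq and the build TAIR10. No source used here gives their versions, the annotation release, whether counting used strand, or how reads that match several places were handled. Groups came from the titles. edgeR 4.0.16 (with limma 3.58.1, R 4.3.3) was the main test: filterByExpr (minimum count 10, minimum total 15) kept 20438 of 32834 loci, libraries were scaled by TMM, and all 6 libraries entered 1 quasi-likelihood fit by group (3 residual degrees of freedom, prior 6.69, common dispersion 0.0174). A call means that the p adjusted by Benjamini-Hochberg over the 20438 genes was below 0.05. SE is the absolute log2 change over the square root of the F statistic. Bounds against 0 counts use 3 counts pooled over the group, and intervals cover counting error only.

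The 9 genes and the 10 gene lists were chosen with earlier results of these data known. Named genes were those 9, the other cyclases, up to 4 genes per list with the smallest p for the mean, the tested loci among the 5 on each side of PEN3, PEN1 to BARS1, THAS1 and MRN1, and the 5 profiles nearest PEN3. AT5G36130, AT5G05325, CYP705A1, CYP705A2, CYP702A6, CYP86A1, HMG1, SQE1 and SQS1 were also named where the text needed them. Names, coordinates and sequences came from RefSeq TAIR10.1, where 32548 loci had a record. Neither protein sequences nor metabolites were analysed here.

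Alternatives were DESeq2 1.42.0, RLE factors, no or a stricter filter (1 CPM in 2 libraries and a mean count of 50), organelle-encoded and rRNA loci removed, a replicate block, only the groups compared, and each library left out. Correlations of same-numbered replicates' deviations were -0.0421, -0.0362 and 0.0364, so the numbers were not taken to pair libraries.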

Additional observations from a re-analysis of the deposited data

Results flagged for a closer look

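Among the genes named by rule beside the cyclases, 8 had an effect in MIF_3 that differed from that in MIF_1. The test was that of the difference itself, MIF_3 against MIF_1 with edgeR. CYP86A1, which also differed, was named outside the rule and is given with the root markers. The sterol methyltransferase gene SMT3 was higher in MIF_3 by a log2 difference of 0.76 (adjusted p 0.0083), and the squalene epoxidase-like gene SQE5 was lower, at -0.57 (0.0249). CYP702A2, beside the PEN1 cluster, was lower in MIF_3, at -1.54 (0.0103). CYP705A5, beside THAS1, was higher, at 0.92 (0.0435), and lost this call with the replicate block (0.0726). Of the genes with profiles nearest PEN3, CYS2 stood at -1.08 (0.0111), LURP1 at -1.53 (0.0121) and AT2G05510 at 1.02 (0.00235). They were picked on all 6 libraries, the sets compared here included. AT2G05510 was higher in MIF_3, whereas the log2 change of PEN3 was -0.59 and did not pass. The guard-cell channel gene KAT1, a shoot marker, stood at 0.96 (0.0232).

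Each of these calls was lost when MIF_1 replicate 1 was left out. Leaving out MIF_1 replicate 2 lost all of them except that of AT2G05510. In either case MIF_1 was a single library, assumed to vary like the other groups. Without MIF_1 replicate 1 the log2 differences were 0.72 for SMT3, -0.48 for SQE5, -1.69 for CYP702A2 and 0.71 for CYP705A5. They were -1.14 for CYS2, -1.6 for LURP1, 0.89 for AT2G05510 and 1.12 for KAT1. SQE5 also lost its call without either MIF_3 library, CYP705A5 without MIF_3 replicate 1 and KAT1 without MIF_3 replicate 2. CYP702A2 also lost its call with DESeq2 (0.0801). None of the 9 genes was among the 8.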

How the results depend on the processing

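Of 264 tested results of the genes named by rule, RLE factors and removal of organelle-encoded and rRNA loci changed 0 calls, and the replicate block changed 4, at CCB3 (adjusted p 0.0559), CYP705A5 (0.0726) and AT5G48020 (0.0717 for MIF_1 and 0.0598 for the mean). CYP86A1, outside these 264, also lost its MIF_1 call with the replicate block (0.0528, edgeR). The number of the 7 tested genes called lower, 0 as reported, was 1 (THAS1) in MIF_1 against WT without the low-count filter, with DESeq2 and with only the groups compared, and 1 (THAS1) for the mean without the filter and with DESeq2. Leaving out each library gave 0 to 1 lower calls in MIF_1 and for the mean (THAS1), and 0 to 1 in MIF_3 against MIF_1 (PEN3, without MIF_3 replicate 1). Reversals in MIF_3 against MIF_1 were AT1G07373, at -1.81 without MIF_3 replicate 1 and up to 1.29 without replicate 2, and AT4G36700, at -1.7 without replicate 1 and 0.74 without replicate 2. The cause was not tested. With 2 libraries a group, calls near the threshold change with 1 library, and CYP716A2 and MRN1 had too few counts to be tested.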
